A study of Mus musculus with 5 samples.

Results

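The 7 genes Muc2, Fcgbp, Zg16, Clca1, Tff3, Agr2 and Spink4, out of 31253 genes in the count tables, encode the main secreted products of goblet cells and a protein that helps to fold them. They were chosen because their UMI counts (unique molecular identifiers, 1 per captured RNA molecule) differed between the 2 intestinal libraries in earlier results of these data, so the levels and ratios given here describe that difference and do not test it. The UUO library was small intestine of wild-type male mice 3 days after unilateral ureteral obstruction (UUO), in which the left ureter was closed with a pair of ties and cut. The sham library was small intestine of wild-type male mice after an operation in which the ureter was exposed and handled but not tied. The mice of both libraries were 8 to 10 weeks old. Cells were sorted by flow cytometry for group 3 innate lymphoid cells (ILC3s) and profiled on the BD Rhapsody system, a microwell platform with cell barcodes. Each group was 1 library; how many mice it pooled, and the day of the sham tissue, are not given in the sources read. The labels' extraction text describes a digestion of pulmonary artery, which does not match the organ. With 1 library per group no difference was tested, an effect of the obstruction cannot be told apart from a difference between mice or library preparations, and all intervals in brackets are exact 95% intervals for counting error only.

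Goblet cells are secretory cells of the intestinal epithelium that store mucus in granules and release it onto the surface. The gel is built from polymers of the mucin MUC2, to which other secreted proteins bind, and in the small intestine it lies loosely over the villi. Innate lymphoid cells are not known to make these proteins. Their RNA counted under the barcode of a lymphoid cell can be free RNA of the cell suspension, and that origin was not tested here.

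The members lie on 5 chromosomes of the mouse genome (GRCm38, the build called mm10 in the submitters' processing notes). Muc2 spans chr7:141690340-141754693 on the plus strand, Fcgbp chr7:28071236-28120862 on the plus strand and Zg16 chr7:127050156-127087328 on the minus strand. Clca1 spans chr3:145003817-145032776 and Tff3 chr17:31125306-31129646, both on the minus strand. Agr2 spans chr12:35992907-36004087 and Spink4 chr4:40920052-40931395, both on the plus strand. All are protein-coding. Zg16 overlaps the annotated genes Gm44939 and Gm22747 on the opposite strand, and no source read here says whether the authors' counting used strand.

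The 250 bases before the RefSeq start site (GRCm38.p6) are shown for Muc2, Fcgbp and Agr2, the 3 of 7 members in the sequence set used. Those of Zg16, Clca1, Tff3 and Spink4 are not shown. A link between these sequences and the members' ratios was not tested. Capitals mark matches to 4 short motifs searched on both strands: CAGCTG, an E-box bound by factors such as ATOH1, AGATAA of GATA factors, TGTTTAC of FOXA factors and TTTATNG of CDX factors.
Muc2 promoter, chr7:141690090-141690339, plus strand: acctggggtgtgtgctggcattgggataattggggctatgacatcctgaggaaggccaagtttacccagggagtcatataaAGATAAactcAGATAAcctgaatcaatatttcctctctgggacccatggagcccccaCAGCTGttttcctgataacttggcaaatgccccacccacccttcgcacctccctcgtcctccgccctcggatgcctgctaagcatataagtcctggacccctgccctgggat
Fcgbp promoter, chr7:28070986-28071235, plus strand: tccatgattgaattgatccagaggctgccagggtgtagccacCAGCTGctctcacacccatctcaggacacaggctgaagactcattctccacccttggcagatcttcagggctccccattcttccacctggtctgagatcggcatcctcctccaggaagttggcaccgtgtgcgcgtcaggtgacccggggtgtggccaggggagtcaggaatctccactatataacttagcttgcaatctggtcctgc
Agr2 promoter, chr12:35992675-35992924, plus strand: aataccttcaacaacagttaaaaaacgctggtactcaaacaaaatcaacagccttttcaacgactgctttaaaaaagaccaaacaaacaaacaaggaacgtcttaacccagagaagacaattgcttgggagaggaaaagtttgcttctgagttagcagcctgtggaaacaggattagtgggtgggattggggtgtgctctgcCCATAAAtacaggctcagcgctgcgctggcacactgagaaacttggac
CAGCTG had 1 match in the Muc2 window and 1 in the Fcgbp window, and 13.1% of 32536 mouse promoter windows of the same length held it. AGATAA had 2 matches in the Muc2 window, against 9.97% of all windows with a match. The TTTATNG match of Agr2 lies on the minus strand and reads CCATAAA on the strand shown; 9.74% of windows held that motif. TGTTTAC, found in 3.17% of windows, was absent from all 3. The motifs did not overlap each other, and a match in these letters is no evidence that a factor binds.

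The UUO library held 5209 barcodes and 14756545 UMIs, of which 4946 cells (94.95%) were kept, and the sham library 3621 barcodes and 8717372 UMIs, of which 3501 cells (96.7%) were kept. Medians were 2177 UMIs per kept cell in UUO and 2039 in sham. ILC3-like cells were 84.0% and 88.9% of them. Epithelium-like cells, which the sort had not removed, were 437 (8.84%) in UUO and 210 (5.998%) in sham. Their depth differed, with medians of 3192 and 1665 UMIs, and 143 UUO against 44 sham epithelium-like cells had 10000 UMIs or more.

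A set of 158 cell barcodes occurred in both intestinal libraries. They labelled 91 of 437 epithelium-like cells in UUO and 90 of 210 in sham, but only 17 of 4156 and 17 of 3111 ILC3-like cells. Of monocyte/macrophage-like cells they labelled 48 of 140 in UUO and 49 of 49 in sham. In 90 pairs the cell was epithelium-like in both libraries. The copies of every such pair were at least 15.3-fold apart in UMIs (median 40.4-fold), deeper in UUO for 57 pairs and deeper in sham for 33. Among goblet-like cells 1 of 10 in UUO and 1 of 15 in sham carried the same shared barcode, with 591 UMIs in UUO and 14783 UMIs in sham. How these barcodes came to be shared was not tested. Values without them are given beside the members' goblet and epithelial ratios, the cell shares and the counts over gene lists; levels, counts per cell and single genes of the lists include them unless stated.

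The first clustering, which set the epithelium-like class, did not leave out the 7 members, so they could enter that step. Goblet-like cells were then found without the members, by clustering the epithelium-like cells on other genes. The cluster that held 16 of 17 goblet markers, among them the transcription factor genes Atoh1, Spdef and Creb3l1, took the name. It had 10 cells in UUO and 15 in sham, which was 2.29% (1.10 to 4.17%) of epithelium-like cells in UUO and 7.14% (4.05 to 11.5%) in sham. Without shared barcodes the shares were 9 of 346 cells or 2.60% (1.20 to 4.88%) in UUO and 14 of 120 cells or 11.7% (6.53 to 18.8%) in sham. Leaving out only the shallower copy of each shared pair gave 2.23% and 9.80%. Of all kept cells, goblet-like cells were 0.202% in UUO and 0.428% in sham. They contributed 1.98% of epithelial UMIs in UUO and 7.06% in sham, and 3.45% in UUO and 15.2% in sham without shared barcodes. The sort selected ILC3s, so these shares describe the sorted suspension and not the mucosa.

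Among other epithelial classes, enterocyte-like cells were 204 (46.7%) of epithelium-like cells in UUO and 44 (21.0%) in sham. Paneth-like cells, the crypt cells that secrete antimicrobial peptides, were 22 (5.03%) and 12 (5.71%), and stem or transit amplifying-like cells 55 (12.6%) and 31 (14.8%). A cluster of 9 UUO and 5 sham cells was led by the enteroendocrine genes Chgb, Gcg, Chga and Cck yet held 9 goblet markers, and it was left unnamed. The remaining 137 (31.4%) UUO and 103 (49.0%) sham cells fell into clusters with too few markers for a name. Some of these had immune genes among their leading genes. They were Rora, Il7r and Cxcr6 in a cluster of 30 UUO and 7 sham cells, and Cd96 and Tcf7 in a cluster of 18 and 32. Fcgr3 and Il1r2 were among those of a cluster of 16 and 7. Other unnamed clusters were led by genes such as Gsdmc4, Slc10a2 and Duox2. All were counted as epithelium-like, and whether their barcodes hold more than 1 cell was not tested. Without shared barcodes enterocyte-like cells were 48.6% in UUO and 18.3% in sham, Paneth-like cells 4.05% and 3.33%, stem or transit amplifying-like cells 12.4% and 16.7%, and unnamed cells outside the Chgb cluster 29.8% and 46.7%.

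All 10 UUO and all 15 sham goblet-like cells carried the members, between 5 and 7 of them in each cell. All 7 were counted in 6 of 10 UUO cells and 11 of 15 sham cells. The members together took 3.68 to 42.5% of a cell's UMIs in UUO (median 21.9%) and 2.37 to 30.8% in sham (median 14.9%), ranges that overlap over most of their length. By sum over cells the order was the other way, with 10.6% of all goblet-like UMIs in UUO (7664 of 72359) and 16.7% in sham (14052 of 84382). The 4 UUO cells with 10000 UMIs or more had low member shares, 3.68 to 8.17%, against 5.42 to 24.9% in the 4 sham cells of that depth. Below 10000 UMIs the member shares were 18.8 to 42.5% in 6 UUO cells and 2.37 to 30.8% in 11 sham cells. This split by depth was made after the values were seen.

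**Figure D1:**
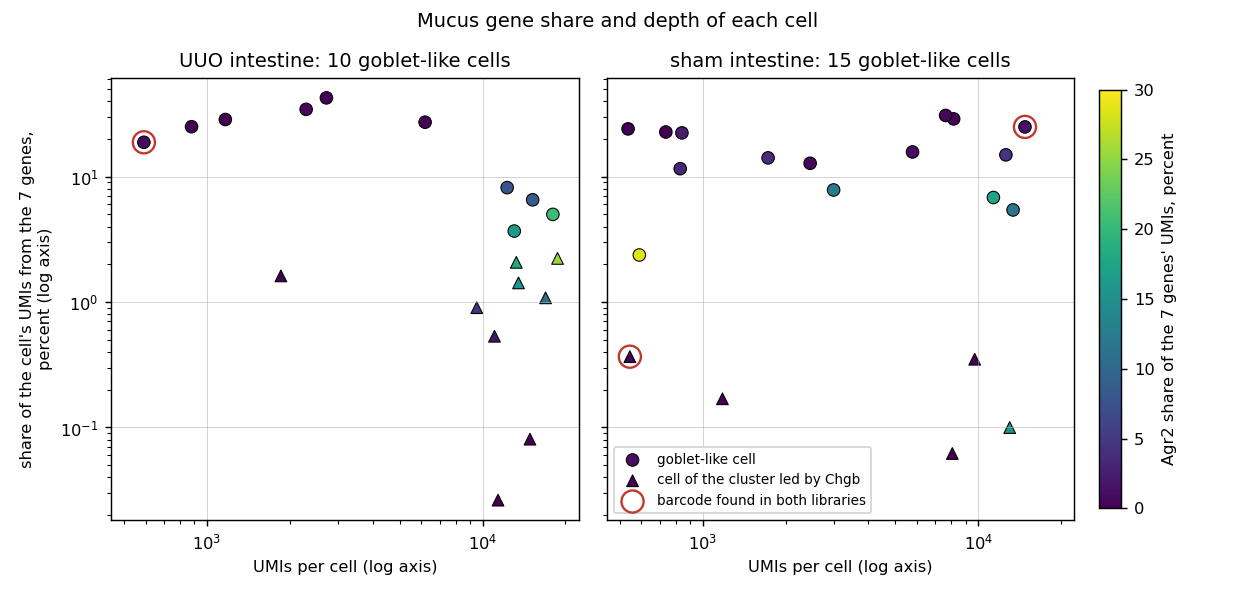
Each point is a cell: UMIs per cell (x, log axis) against the percent of its UMIs that come from the 7 genes (y, log axis), with UUO on the left and sham on the right; circles are goblet-like cells, triangles cells of the cluster led by Chgb, red rings the barcodes found in both libraries, and colour the Agr2 share of the 7 genes' UMIs. The 4 deep UUO goblet-like cells lie between 3.68 and 8.17%, below the 6 shallower ones at 18.8 to 42.5%, and triangles lie lower still in both libraries.

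Muc2, which encodes the mucin that forms the gel, ranged from 5 to 357 UMIs per goblet-like cell in UUO (median 108.5) and from 2 to 303 in sham (median 36). Summed over cells it stood at 16459.6 CPM (counts per 1000000 UMIs of the summed cells) in UUO and 17444.5 CPM in sham. The log2 ratio of UUO over sham was -0.08 (-0.20 to 0.03), an interval that includes 0. It was -0.11 without shared barcodes and -0.50 without the cell richest in members in each library. With the cluster led by Chgb counted in it was -0.89, and in cells chosen by a gate on goblet markers -0.97. As a mean over cells with equal weight it was 0.64, so the weighting of cells turned its sign. The choice of cells moved its size. In epithelium-like cells as a whole Muc2 was 431 CPM in UUO and 1366 CPM in sham, log2 -1.66 (without shared barcodes -2.04). Next to goblet-like cells the Paneth-like cells had its highest CPM, 805 in UUO and 546 in sham, and enterocyte-like cells had 44.9 and 63.4. Without shared barcodes 104 of 189 Muc2 UMIs in Paneth-like cells were left in UUO and 2 of 67 in sham.

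Fcgbp encodes a large secreted protein of the mucus gel that is linked to MUC2. Its counts per goblet-like cell ran from 9 to 436 UMIs in UUO (median 142.5) and from 0 to 616 in sham (median 106). The summed level was 26492.9 CPM in UUO and 32768 CPM in sham, log2 -0.31 (-0.39 to -0.22), a smaller difference than the spread between cells; the mean over cells with equal weight gave 0.50. It was -0.38 without shared barcodes, -0.62 without the richest cell of each library, -1.17 by the gate and -0.95 with the cluster led by Chgb. In epithelium-like cells it was 662 CPM in UUO and 2500.2 CPM in sham, log2 -1.92 (without shared barcodes -2.31). It stood at 76.6 and 138 CPM in Paneth-like cells and 47.0 and 112 CPM in enterocyte-like cells. Without shared barcodes 9 of 18 Fcgbp UMIs in Paneth-like cells were left in UUO and 1 of 17 in sham.

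Zg16, the gene of a lectin-like mucus protein that binds bacterial cell walls, had the lowest epithelial ratio of the 7 from summed UMIs. Its counts per goblet-like cell ran from 2 to 568 UMIs in UUO (median 173.5) and from 2 to 1731 in sham (median 54). The cell with 1731 is the shared-barcode cell of sham, and the sham cells with the next counts had 1212 and 923. Summed, Zg16 was 26990.4 CPM in UUO and 59349 CPM in sham, log2 -1.14 (-1.21 to -1.06), and -0.84 without shared barcodes. Averaged over cells with equal weight the sign turned, with a log2 ratio of 0.31, while the gate gave -2.24 and joining the cluster led by Chgb -2.003. Zg16 made up less than 5% of the members' UMIs in 1 of 10 UUO and 3 of 15 sham goblet-like cells, so goblet-like cells with little Zg16 occurred in both libraries. In epithelium-like cells it stood at 588 CPM in UUO and 4498 CPM in sham, log2 -2.94 (-3.01 to -2.86), and -2.98 without shared barcodes.

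Clca1, which encodes a secreted metalloprotease that processes the mucus gel, ran from 6 to 174 UMIs per goblet-like cell in UUO (median 35) and from 0 to 678 in sham (median 15). Its sum was 6343 CPM in UUO and 16022 CPM in sham, log2 -1.34 (-1.49 to -1.18). Without shared barcodes, that is without the sham cell with 678, the ratio was -0.63 (-0.81 to -0.46), and as a mean over cells with equal weight it was -0.30, under 1.5-fold. The gate gave -2.19 and joining the cluster led by Chgb -1.98. In epithelium-like cells the levels were 156 CPM in UUO and 1168 CPM in sham, log2 -2.90 (without shared barcodes -2.54). Of its UMIs in kept cells 73.8% in UUO and 88.7% in sham lay in goblet-like cells, and 75.1% and 81.4% without shared barcodes.

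Tff3, the trefoil peptide gene whose product is secreted with the mucin, ran from 15 to 268 UMIs per goblet-like cell in UUO (median 162.5) and from 2 to 627 in sham (median 104). It summed to 20868 CPM in UUO and 30539.7 CPM in sham, log2 -0.55 (-0.64 to -0.46), and the mean over cells turned the sign to 0.15. It was -0.43 without shared barcodes, -1.17 by the gate and -1.03 with the cluster led by Chgb. In epithelium-like cells it was 649 CPM in UUO and 2476 CPM in sham, log2 -1.93 (without shared barcodes -2.22). Every cell of the cluster led by Chgb held it, at 4482 CPM in UUO and 1169 CPM in sham.

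Agr2 encodes a protein disulfide isomerase of the endoplasmic reticulum that is needed to fold MUC2. It was the only member with a higher summed level in UUO goblet-like cells, 6081 CPM in UUO and 4977 CPM in sham, log2 0.29 (0.09 to 0.49). Averaged over cells with equal weight its log2 ratio was -0.31, and without shared barcodes, from summed UMIs, it was 0.17. It was -0.35 in cells chosen by a gate on goblet markers and -0.02 with the cluster led by Chgb counted in. The counts were 78 to 184 UMIs in the 4 UUO cells of 10000 UMIs or more and 42 to 135 in the 4 sham cells of that depth. In shallower cells they were 0 to 4 in 6 UUO cells and 0 to 29 in 11 sham cells. Agr2 took 12.7% (11.6 to 13.8%) of the members' UMIs in deep UUO cells and 4.83% (4.34 to 5.35%) in deep sham cells. The shared-barcode cell held 3682 of the 7062 member UMIs of the deep sham cells, and without it the sham share was 8.85% (7.91 to 9.85%). Cell by cell the share was 8.07 to 20.4% in the 4 UUO cells and 1.14 to 17.4% in the 4 sham cells, so the cells overlap. In shallower cells the shares were 0.280% (0.145 to 0.488%) and 1.13% (0.896 to 1.41%). Among single shallower cells the share ran from 0 to 0.901% in UUO and from 0 to 28.6% in sham, so these overlap as well.

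Spink4, the gene of a small secreted Kazal-type peptide, was shared between goblet-like and Paneth-like cells. It ran from 0 to 70 UMIs per goblet-like cell in UUO (median 8) and from 0 to 181 in sham (median 10). In goblet-like cells it was 2681 CPM in UUO and 5428 CPM in sham, log2 -1.02 (-1.27 to -0.77). It was -1.22 without shared barcodes, -1.43 as a mean over cells and -0.56 by the gate. In Paneth-like cells it was 3249 CPM in UUO and 2638 CPM in sham, log2 0.30 (0.11 to 0.49). Without shared barcodes only 14 UUO and 4 sham Paneth-like cells were left. Spink4 was then at 3564 CPM (268 UMIs) in UUO and 931 CPM (9 UMIs) in sham.

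In goblet-like cells 3 of 7 members, Zg16, Clca1 and Spink4, were at least 1.5-fold lower in UUO and 0 were at least 1.5-fold higher. Of the 191 genes whose UMIs in UUO and sham came to 100 or more, 12.6% were lower by that fold and 11.5% were higher. The members were chosen for a difference between these libraries, so nothing is read from their count. Without shared barcodes the sum of the 7 had a log2 ratio of -0.50, against -0.65 (-0.69 to -0.61) with them. The median of all tested genes stood at 0.16 in these cells. With levels scaled to that median the sum was at -0.81, Agr2 at 0.13 and Muc2 at -0.25, and the split of all tested genes changed from 22 higher and 24 lower to 13 higher and 34 lower. Averaged over cells with equal weight, the sum had a log2 ratio of 0.29, from means of 19.97% of UMIs in UUO cells and 16.3% in sham cells. The 2 ways of averaging thus differed in sign, and no direction is given for the sum within goblet-like cells. The count of members also moved: as means over cells 1 of 7, Spink4, was at least 1.5-fold lower and 1, Muc2, higher. It was 3 lower without shared barcodes, 4 lower without the richest cell of each library or scaled to the median gene, 5 lower by the gate and 6 lower with the cluster led by Chgb, with 0 higher in each.

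In epithelium-like cells all 7 members were at least 1.5-fold lower in UUO, with log2 ratios from -2.94 for Zg16 to -1.10 for Agr2. Without shared barcodes all 7 were again lower by that fold, with Agr2 at -1.55 and Spink4, at -1.26 with them, at -1.9996. Their median was -1.92, against -0.07 over the 6360 genes tested, of which 8.24% were lower by that fold and 8.35% were higher. Nothing is read from this count or median either, since the genes were chosen for a difference between these libraries. Scaled to the median gene, 369 genes were lower and 641 higher in place of 524 and 531. The sum of the 7 was 2998 CPM (10960 UMIs) in UUO and 13178 CPM (15744 UMIs) in sham, log2 -2.14 (-2.17 to -2.10). Without shared barcodes it was -2.38, and averaged over cells with equal weight -1.29. With the goblet-like cells left out, the sum was 920 CPM in UUO and 1524 CPM in sham, log2 -0.73 (-0.81 to -0.64), with single members between -2.58 for Zg16 and -0.25 for Agr2. Only 1 of 7, Zg16, was then at least 1.5-fold lower (median -0.50), and the sum of the other 6 was at -0.47 (-0.56 to -0.37), under that fold. With goblet-like cells left out, no share over all genes is given here. Without shared barcodes as well, 3 of 7 were lower (median -0.51), the sum of those 6 was at -0.61 and that of all 7 at -0.94, and Spink4 turned to 0.29. With shared barcodes kept and only the goblet-like cells left out, Zg16 stood at 54.97 CPM in UUO and 329.6 CPM in sham. The markers of enterocytes were higher in the same cells: 12 of 12 measured markers were at least 1.5-fold higher in UUO, and their sum was 34784 CPM in UUO and 17153 CPM in sham (11 of 12 without shared barcodes). How far the make-up of the epithelial cells entered the ratios was not tested beyond leaving out the goblet-like cells.

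**Figure D2:**
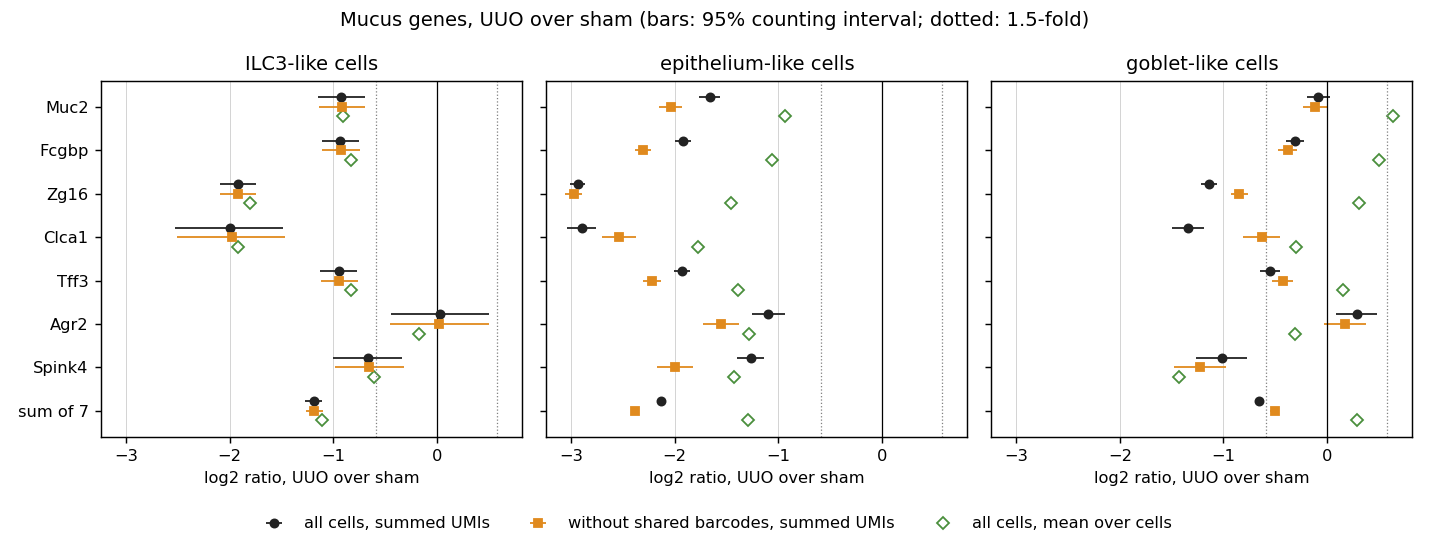
The log2 ratio of UUO over sham is plotted for each gene and their sum in ILC3-like, epithelium-like and goblet-like cells; black circles are all cells and orange squares all cells without shared barcodes, both from summed UMIs with 95% counting intervals, green diamonds are means over cells, and dotted lines mark 1.5-fold. Ratios lie left of 0 for 7 of 7 genes in epithelium-like cells, and in goblet-like cells the sum lies at -0.65 from summed UMIs and at 0.29 as a mean over cells.

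The cell classes that held the members' UMIs differed between the libraries. Goblet-like cells held 59.2% of them in UUO and 74.3% in sham, and ILC3-like cells 14.3% and 15.8%. Paneth-like cells held 9.79% in UUO and 2.90% in sham. For Spink4 the Paneth-like cells held 61.8% in UUO and 31.6% in sham, and the goblet-like cells 15.7% and 44.6%. The cluster led by Chgb held 9.71% of the members' UMIs in UUO (1257 UMIs) and 0.296% in sham (56 UMIs). For Agr2 this cluster held 23.9% in UUO and 0.323% in sham. Without shared barcodes the goblet-like cells held 64.2% in UUO and 72.3% in sham of the members' UMIs, the Paneth-like cells 3.84% and 0.216% and the cluster led by Chgb 10.7% and 0.376%. For Spink4 the Paneth-like cells then held 37.4% in UUO and 1.34% in sham, and the goblet-like cells 27.1% and 65.5%.

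**Figure D3:**
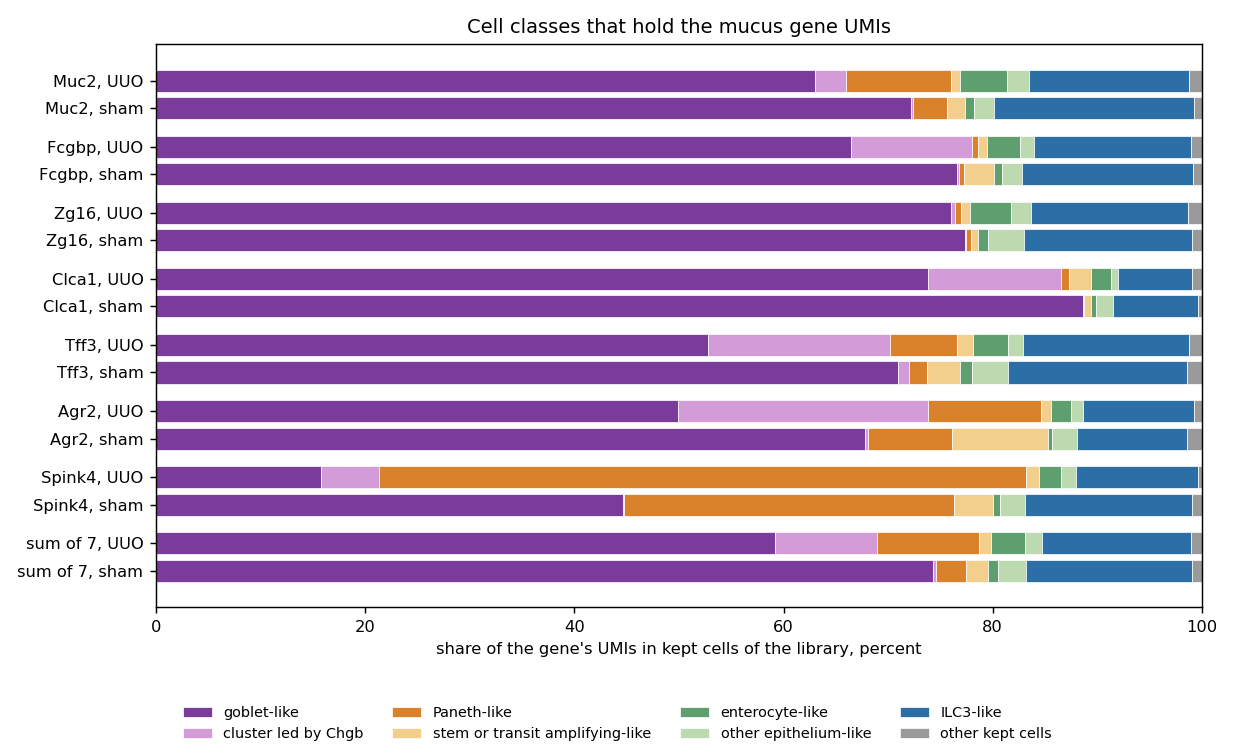
Bars show the percent of each gene's UMIs in kept cells that lay in each cell class, UUO above sham for each gene. Goblet-like cells (purple) hold the longest part for 6 of 7 genes in both libraries, and for Spink4 in UUO Paneth-like cells (orange) hold 61.8%.

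The cells of the cluster led by Chgb were of different kinds. In UUO the 5 cells with the most member UMIs had 417, 275, 192, 183 and 86 of them, 5 to 13 goblet markers and 0 or 1 UMI of the 11 enteroendocrine markers. The other 4 UUO cells had 59, 30, 12 and 3 member UMIs and 8, 2, 46 and 476 enteroendocrine UMIs. In sham the 5 cells had 34, 13, 5, 2 and 2 member UMIs, and 3 of them had 851, 1141 and 99 enteroendocrine UMIs. Whether some of these barcodes hold more than 1 cell was not tested. Counting this cluster with the goblet-like cells gave 4.35% of epithelium-like cells in UUO and 9.52% in sham. By a gate on at least 3 goblet markers with a UMI, 41 (9.38%) UUO and 29 (13.8%) sham cells were counted. That gate favours deep cells, with medians of 15824 and 12604 UMIs, and it took in 10 UUO and 3 sham Paneth-like cells.

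**Figure D4:**
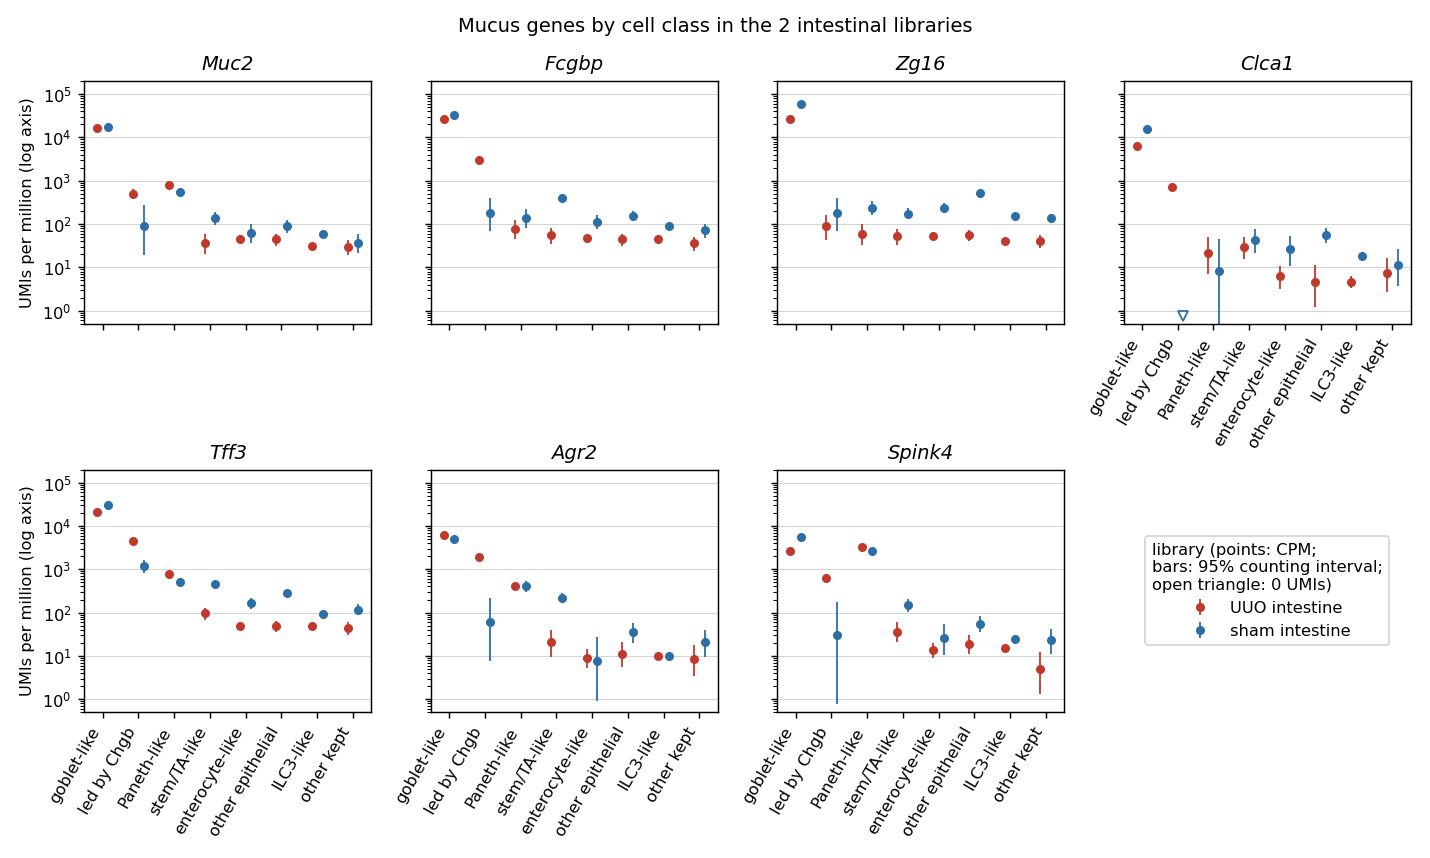
CPM (log axis) of each gene is plotted by cell class, with UUO in red left of sham in blue, vertical bars as 95% Poisson intervals and an open triangle where no UMI was counted. Every gene except Spink4 has its highest level in goblet-like cells in both libraries; Spink4 in UUO is higher in Paneth-like cells, at 3249 CPM against 2681 CPM.

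In ILC3-like cells the members were counted at low levels, in most cases 1 UMI at a time. The 7 together had 197 CPM (188 to 206; 1845 UMIs) in UUO and 449 CPM (433 to 466; 2999 UMIs) in sham, log2 -1.19 (-1.27 to -1.11). At least 1 UMI was found in 32.5% of UUO and 59.6% of sham ILC3-like cells, at median depths of 2173 and 2041 UMIs. After thinning every cell to 1000 UMIs, which left 3855 UUO and 2994 sham cells, the shares were 16.3% (15.2 to 17.5%) and 35.9% (34.2 to 37.7%). Exactly 1 UMI was present in 1040 UUO and 1075 sham cells, and 5 or more in 6 and 21 cells. The highest counts in an ILC3-like cell were 45 in UUO and 35 in sham. Leaving out the cells with 5 or more gave a log2 ratio of -1.23, and leaving out shared barcodes -1.18.

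In the ILC3-like cells 6 of 7 members were at least 1.5-fold lower in UUO, against 1.17% of the 9107 genes tested, while 3.35% of genes were higher. Nothing is read from this count, since this contrast was used to choose the genes. The levels of Zg16 were 41.2 CPM in UUO and 156 CPM in sham, those of Clca1 4.70 and 18.7, of Tff3 48.4 and 93.3, of Fcgbp 46.4 and 88.5, and of Muc2 30.9 and 58.4. Spink4 was at 15.5 CPM in UUO and 24.6 CPM in sham, just past the fold with a log2 ratio of -0.67. Agr2 lay outside it with 9.93 CPM in UUO and 9.74 CPM in sham, log2 0.03 (-0.44 to 0.51). Other kept cells, which are neither epithelium-like nor ILC3-like, held the 7 at 170 CPM (143 to 200) in UUO and 417 CPM (358 to 482) in sham, with intervals that overlap those of the ILC3-like cells of their own library. They include the monocyte/macrophage-like cells, and without shared barcodes they were at 173 CPM in UUO and 421 CPM in sham. Barcodes removed by the filter held 648 CPM in UUO and 941 CPM in sham.

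Markers of other epithelial cells in the same ILC3-like cells differed between the libraries, each in its own direction. All 11 measured enterocyte markers were at least 1.5-fold higher in UUO, summing to 1646 CPM in UUO and 553 CPM in sham. Of 8 measured Paneth markers 1, Defa21, was higher by that fold and 0 lower, with sums of 1315 and 1148 CPM. The 3 measured enteroendocrine markers were lower, with list sums of 9.08 CPM in UUO and 91.8 CPM in sham. The ILC3 marker list had 0 of 11 genes higher and 1 lower.

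For some genes the members' UMIs in ILC3-like cells had a make-up near that of goblet-like cells of the same library, for others not. Zg16 made up 20.9% (19.1 to 22.9%) of these UMIs in UUO and 34.7% (33.0 to 36.4%) in sham. In goblet-like cells it made up 25.5% (24.5 to 26.5%) and 35.6% (34.8 to 36.4%). With shared barcodes kept, the intervals were thus apart in UUO and overlapped in sham. Tff3 had a higher part in ILC3-like cells, 24.6% (22.6 to 26.6%) in UUO and 20.8% (19.3 to 22.3%) in sham. In goblet-like cells Tff3 had 19.7% (18.8 to 20.6%) and 18.3% (17.7 to 19.0%). Agr2 made up 5.04% and 2.17%, beside 5.74% and 2.99% in goblet-like cells. Clca1 had a lower part in ILC3-like cells, 2.38% (1.74 to 3.19%) in UUO and 4.17% (3.48 to 4.95%) in sham, than in goblet-like cells with 5.99% (5.47 to 6.54%) and 9.62% (9.14 to 10.1%). Without shared barcodes goblet-like cells had Zg16 at 24.9% in UUO and 31.6% in sham and Clca1 at 5.94% and 6.4995%. Zg16 in ILC3-like cells was then 20.9% in UUO and 34.7% in sham, so the sham values were closer with shared barcodes kept. Spink4 had a higher part in ILC3-like cells, 7.86% and 5.47%, than in goblet-like cells with 2.53% and 3.26%. In all epithelium-like cells Spink4 had 9.90% in UUO and 5.41% in sham, and 5.79% and 4.45% without shared barcodes. Clca1 had 5.22% and 8.86% there with shared barcodes kept. Removed barcodes had Zg16 at 21.1% in UUO and 35.6% in sham, and Spink4 at 8.38% and 5.15%.

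**Figure D5:**
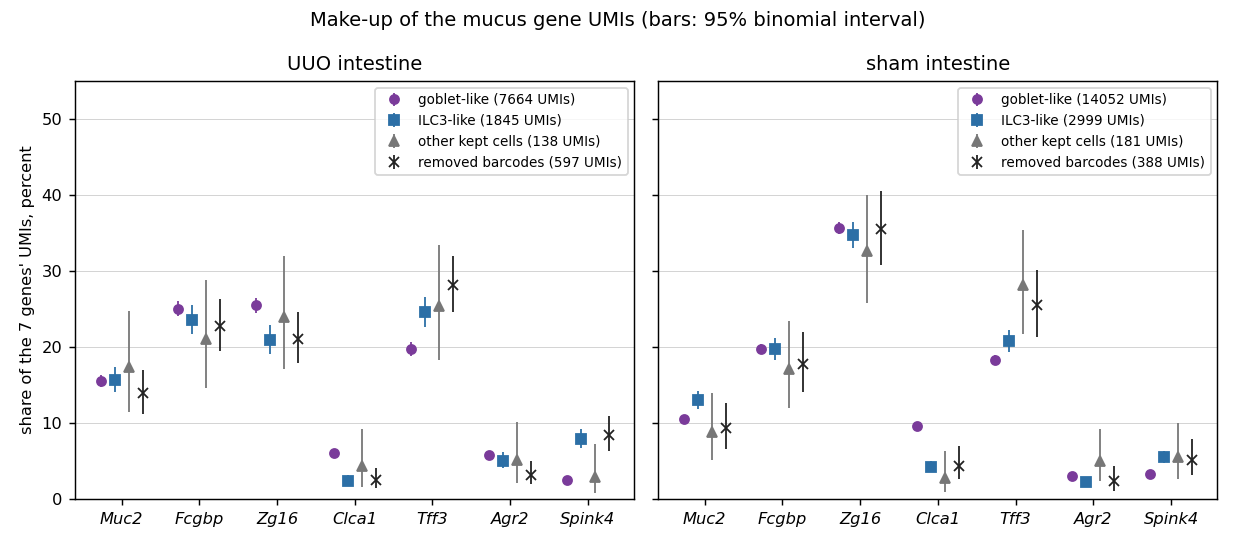
Each point is the percent of the 7 genes' UMIs that belong to the gene, with UUO on the left and sham on the right, in goblet-like cells, ILC3-like cells, other kept cells and barcodes removed by the filter; bars are 95% binomial intervals. With shared barcodes kept, Zg16 is at 20.9 to 25.5% in all 4 groups of UUO barcodes and at 32.6 to 35.6% in those of sham. Clca1 is at 5.99% in UUO and 9.62% in sham goblet-like cells, and at 2.38% and 4.17% in ILC3-like cells.

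Genes that take part in mucus production, from lists of the same pathway, were compared in the epithelium-like cells, where the median of all genes was -0.07. Of all 6360 genes tested there, 8.24% were at least 1.5-fold lower and 8.35% higher. No such share is given for the counts without shared barcodes. Of 7 measured goblet transcription factors 0 were at least 1.5-fold higher and 2 lower (median -0.09). Atoh1, which sets secretory fate, was 22.2 CPM in UUO and 43.5 CPM in sham, log2 -0.97 (-1.49 to -0.44). Spdef, which drives goblet maturation, was at -0.74 (-1.33 to -0.12). In goblet-like cells alone Atoh1 went the other way, with 732 CPM (549 to 958) in UUO and 415 CPM (289 to 577) in sham. Spdef was 359 CPM and 320 CPM there. Atoh1, Spdef, Galnt12 and Sytl2 were among the 17 goblet markers. No ratio with goblet-like cells left out is given for them. Without shared barcodes 1 of 6 measured factors was higher and 2 were lower (median -0.56). Of 13 measured mucin glycosylation genes 0 were higher and 2 lower (median -0.41), namely the O-glycosylation starters Galnt12 at -1.03 (-1.52 to -0.52) and Galnt3 at -0.92 (-1.32 to -0.51); without shared barcodes 4 of 10 were lower. Of 7 granule and exocytosis genes 0 were higher and 3 lower (median -0.46), with Sytl2 at -1.56 (-2.03 to -1.08) and the granule GTPase gene Rab27b at -1.10 (-1.67 to -0.51). Of 20 measured genes of protein folding in the endoplasmic reticulum 1 was higher, Dnajb9 at 0.72 (0.50 to 0.95), and 3 were lower, among them Txndc5 at -0.74 and the stress sensor gene Ern1 at -0.62 (median -0.10), with 1 higher and 3 lower of 19 without shared barcodes.

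Other genes of the mucus layer did not all go the way of the members. Of 11 measured genes 1 was at least 1.5-fold higher and 4 lower (median -0.47), beside 8.35% and 8.24% of all genes tested. The kallikrein gene Klk1, also a goblet marker, was 25.7 CPM in UUO and 72.8 CPM in sham, log2 -1.50 (-1.94 to -1.06). Reg3g, an antimicrobial lectin gene, was 1226 CPM in UUO and 2870.2 CPM in sham, log2 -1.23 (-1.29 to -1.16), and Reg4 was at -1.08 (-1.23 to -0.93). Muc3, a membrane-bound mucin gene of enterocytes, was higher with 1171 CPM in UUO and 671 CPM in sham, log2 0.80 (0.69 to 0.91). Without shared barcodes the median of this list was -0.27 with 3 higher and 4 lower, and that of the granule list 0.08 with 1 higher and 1 lower. The Paneth marker list, some of whose genes act in the mucus layer, had 0 of 9 genes higher and 6 lower, but 6 higher and 0 lower without shared barcodes.

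The genes whose levels over epithelium-like cells were most like the summed members were taken from 6353 genes, by the lower Pearson r of the 2 libraries over 437 UUO and 210 sham cells. The closest were Sytl2 with r of 0.58 in UUO and 0.58 in sham, Ano7 with 0.57 and 0.58, Hepacam2 with 0.57 and 0.57, and Atoh1 with 0.54 and 0.57. Ccl6, Spdef, Slc12a8, 5330417C22Rik, Selenom and Atp2a3 followed, with the lower r between 0.47 and 0.49. The cells of a library share its preparation and differ in depth, so these values are descriptions.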

How the data were processed

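Single cells of 4 libraries were used: UUO and sham intestine, wild-type kidney at 14 days and the kidney labelled PD-1 knockout at 3 days after UUO. Kidney of wild-type mice at 3 days was not analysed here. The authors deposited raw UMI counts per gene and cell. CASAVA 1.8, UMI-tools, Seurat and mm10 are named, per the submitters' processing notes; aligner, annotation and cell calling are not stated in the sources read. Of 31253 gene IDs, 31107 matched the GENCODE M21 (GRCm38) table. Promoters came from RefSeq.

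Cells were kept at 500 or more UMIs, 250 or more genes and at most 20% mitochondrial UMIs, and were clustered together without integration (Python 3.11.15, scanpy 1.11.5, leidenalg 0.10.2; 2000 variable genes, 30 components, 15 neighbours, resolution 1.0). A cluster was named for the class with most markers (3 or more), each 2-fold over all other cells and present in at least 10% of its cells. It stayed unnamed if another class had more markers among its 10 leading genes, or if cell cycle genes took many of those places. The cluster led by Chgb had 9 goblet markers and stayed unnamed because enteroendocrine markers led it. Epithelium-like cells were clustered again without the 7 members (1500 genes, 15 components). The resolution used there, 3.0, was chosen after seeing the data, because below it goblet cells joined the cluster led by Chgb. Scrublet marked 0 of 4946 UUO and 1 of 3501 sham cells, so doublets were not removed.

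CPM is the summed UMIs of a gene over those of its class and library. Intervals are exact at 95%: Poisson for levels, binomial for shares and conditional binomial for log2 ratios. Ratios were called at 1.5-fold among genes with 100 UMIs or more over UUO and sham. Scripts were tested on simulated data. Leaving shared barcodes out of source shares, make-up and depth classes, and Zg16 out of a sum, was added after seeing the data. Of each pathway list up to 4 genes with the largest epithelial ratio could be named, with the 10 genes most like the summed members; Defa21 and the genes named in goblet-like cells were chosen after their values were seen. The members and lists were chosen with earlier results of these data known.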

Additional observations from a re-analysis of the deposited data

How the results depend on the processing

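The members' sum was lower in UUO ILC3-like and epithelium-like cells under every alternative run; in goblet-like cells its sign depended on the weighting of cells. In ILC3-like cells the log2 ratio of the sum, -1.19, was -1.28 with the 2 intestinal libraries clustered alone and -1.10 as a mean over cells. In epithelium-like cells, at -2.14, it was -2.38 without shared barcodes, -2.18 without their shallower copies, -2.01 without the top cell of each library, -2.07 scaled to the median gene and -1.29 as a mean over cells. In goblet-like cells, at -0.65, it was -0.50 without shared barcodes, -1.41 by the gate of 3 markers, -1.31 with the cluster led by Chgb, -0.72 without the top cells, -0.81 scaled to the median gene and 0.29 as a mean over cells; Zg16 was 0.31 in that mean. The gate counted 9.38% of epithelium-like cells in UUO and 13.8% in sham, of which 9 of 41 UUO and 14 of 29 sham cells were goblet-like. Without shared barcodes the goblet-like shares were 2.60% in UUO and 11.7% in sham. With the cluster led by Chgb the UUO share was 4.35%, and the sham share is given above. Genes past 1.5-fold, higher and lower, were 305 and 107 in ILC3-like cells, and 831 and 463 with a minimum of 20 UMIs. In epithelium-like cells 531 and 524 became 997 and 1636 with that minimum and 832 and 797 as means over cells. In goblet-like cells 22 and 24 became 279 and 246 with that minimum, 158 and 93 by the gate, 85 and 67 with the cluster led by Chgb, and 13 higher when scaled to the median gene. The cause was not tested. Leaving out shallower copies or top cells, and joining the cluster led by Chgb, were added after seeing the data. Leaving out doublets was not run, since Scrublet made almost no calls. No paired analysis was possible because each group is 1 library. With 10 and 15 goblet-like cells a single cell holds 21.9% of the members' goblet UMIs in UUO and 26.2% in sham.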

Other observations

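Genes of protein folding in the endoplasmic reticulum were measured in the goblet-like cells themselves, where 6 of the 22 listed genes had at least 100 UMIs. At least 1.5-fold higher in UUO were 3 of the 6 and 0 were lower, against 11.5% and 12.6% of all 191 genes tested there, and their median log2 ratio was 0.60, against 0.16 over all. The chaperone gene Hspa5 was 8513 CPM in UUO and 4527 CPM in sham, log2 0.91 (0.72 to 1.10). Hsp90b1, which encodes the chaperone GRP94, was 3441 CPM in UUO and 1849 CPM in sham, log2 0.90 (0.60 to 1.19). Pdia3, a disulfide isomerase gene, was 1548 CPM in UUO and 877 CPM in sham, log2 0.82 (0.38 to 1.26). Calr, a lectin chaperone gene, was 2156 CPM in UUO and 2335 CPM in sham, log2 -0.11 (-0.43 to 0.20). The other measured genes, Xbp1 at 0.38 and Txndc5 at 0.30, were under 1.5-fold. These ratios come from summed UMIs, and none is given here as a mean over cells. Without shared barcodes the count was again 3 higher and 0 lower, with a median of 0.52. These genes were named after their values were seen. More of the UUO UMIs came from the 4 cells of 10000 UMIs or more, 58523 of 72359, against 52125 of 84382 in sham.

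Of 3 measured mucus layer genes in goblet-like cells 1, the membrane mucin gene Muc13, was past 1.5-fold. It had 1465 CPM in UUO and 2429 CPM in sham, log2 -0.73 (-1.08 to -0.38). Of all 191 genes tested there 12.6% were lower by that fold. The 1 measured granule gene, Scin, was also past it, with 705 CPM in UUO and 1078 CPM in sham, log2 -0.61. Without shared barcodes Scin was at -0.20. Of the transcription factor genes, Klf4 alone had 100 UMIs there, at 1520.2 CPM in UUO and 1742 CPM in sham, log2 -0.20 (-0.57 to 0.17). Atoh1 had 53 UMIs (732 CPM) in 8 of 10 UUO cells and 35 UMIs (415 CPM) in 9 of 15 sham cells. Spdef had 26 UMIs (359 CPM) in 7 UUO cells and 27 UMIs (320 CPM) in 7 sham cells.

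The kidney libraries had almost none of the members. The library labelled PD-1 knockout, 3 days after UUO, held 5 UMIs of the 7 genes in 6960 cells, or 0.308 CPM. Wild-type kidney 14 days after UUO held 3 UMIs, all of Zg16, in 5212 cells, or 0.292 CPM.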
